A study of Danio rerio with 24 samples.

Results

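The genes ahsg1, fetub, shbg and vtnb encode proteins that the liver secretes into blood plasma, and the ages at which their transcripts appear are described here in sorted zebrafish cells. They were taken by gene symbol and are represented by 5 of the 15502 probe sets tested, that is by 4 of 8793 annotated genes, with 2 probe sets for shbg. They were selected on measured scores of these same arrays, by large differences between the sorted fractions or between ages, so their levels and differences are given as a description with no p-value. Homozygous Tg(XlEef1a1:GFP)s854 embryos carry GFP driven by a Xenopus laevis Eef1a1 promoter fragment, in a pattern that marks digestive organs formed from endoderm. All embryos received 1-phenyl-2-thiourea to suppress pigment, and were dissociated and sorted into GFP+ and GFP- cells at 2, 3, 4 and 6 days post fertilization (dpf). The 8 groups are therefore GFP+ and GFP- cells at each age, all of the same transgenic strain, with 3 arrays in each group and 24 arrays in all. No label states if the replicates are separate clutches, so errors and p-values cover the spread between these samples.

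Vitronectin, encoded by vtnb, is a glycoprotein of plasma and extracellular matrix that binds integrins and, in mammals, the plasminogen activator inhibitor PAI-1. The fetuins belong to the cystatin superfamily. In mammals fetuin-A, the product of AHSG, binds calcium phosphate and limits mineral deposition, and in the mouse fetuin-B inhibits the egg proteinase ovastacin. Sex hormone binding globulin, encoded by shbg, carries androgens and oestrogens in blood. Hepatocytes are the main source of these proteins in mammals, and secreted plasma proteins are among the earliest products of a differentiating liver.

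Values are deposited scores, scaled per array to median 0 and SD 1 (SD is the standard deviation), and the unit is called array SD. A score above 0 means that a probe set lay above the median probe set of its array. Precision is limited by the number of arrays. Arrays of the same group correlated between 0.893 and 0.983. The lowest mean correlation with its own group, 0.897, was that of the third GFP+ array at 6 dpf. The label of the GFP+ gate was checked on 10 measured hepatocyte markers, among them the liver fatty acid binding protein gene fabp10a. Their median score was 1.86 to 2.3 on GFP+ arrays at 2 dpf and 3.2 to 3.44 at 6 dpf, against -0.29 to 0.11 on GFP- arrays at 2 dpf and 1.31 to 1.66 at 6 dpf. Of these markers rbp4 had a lower mean in GFP+ than in GFP- cells at 2 dpf (1.87 against 2.54). The median of 9 neuron markers was 0.13 to 0.22 on GFP+ and 1.13 to 1.45 on GFP- arrays at 2 dpf. Other lists were less cleanly apart. That of 8 skeletal muscle markers overlapped at 2 dpf (1.42 to 1.9 on GFP+ against 1.57 to 2.12 on GFP- arrays). That of 9 epidermis markers was 1.17 to 1.82 against 2.01 to 2.55 at 2 dpf. That of 10 exocrine pancreas markers overlapped at 4 dpf (2.41 to 3.54 against 0.3 to 2.67). That of 9 intestinal epithelium markers was 1.33 to 1.68 against -0.36 to 0.34 at 2 dpf, but overlapped at 6 dpf (1.23 to 1.87 against 0.96 to 1.51). That of 7 endocrine pancreas markers was lower on GFP+ arrays at 6 dpf (0.54 to 0.77 against 1.76 to 1.95). In bulk samples, fewer hepatocytes and less RNA per hepatocyte cannot be told apart.

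The plasma protein transcripts appeared in GFP+ cells at different ages. Appearance is the earliest age from which all 3 GFP+ arrays lay above the array median at that and every later age. By this rule vtnb and fetub were present at 2 dpf, shbg appeared at 3 dpf with either of its probe sets, and ahsg1 appeared at 6 dpf. With a stricter limit, a score above 1, fetub appeared at 3 dpf and the dimmer shbg probe set at 6 dpf. Over all probe sets the rule gave the ages in turn for 32.3%, 1.35%, 1.21% and 3.26%, while 61.9% were not above the median on all GFP+ arrays at 6 dpf. The choice of genes fixes this spread of ages, so it is no evidence about plasma proteins in general.

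**Figure D1:**
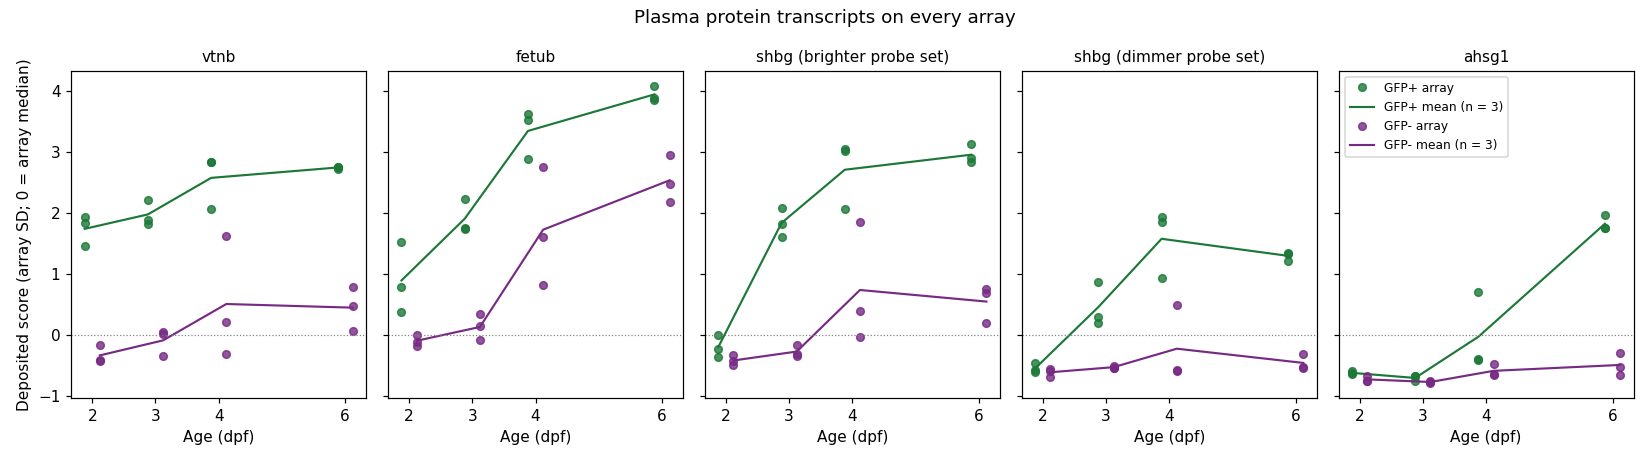
Score in array SD (vertical axis) against age in dpf (horizontal axis) for each probe set, with a point for every GFP+ array (green, left) and GFP- array (purple, right) and lines through the means of 3 arrays. GFP+ points of vtnb lie above 0 from 2 dpf on, whereas all 3 GFP+ points of ahsg1 lie above 0 at 6 dpf only.

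Vitronectin b was the steadiest of the 4 genes in the difference between the gates. The vtnb score was 1.83, 1.46 and 1.93 on GFP+ arrays at 2 dpf, against -0.43, -0.16 and -0.42 on GFP- arrays. At 3 dpf it was 2.22, 1.82 and 1.89 in GFP+ cells, against 0.02, 0.05 and -0.34 in GFP- cells. The gates did not overlap at either age, and the gene already lay above 84.6% to 91.0% of all probe sets on the GFP+ arrays at 2 dpf.

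At 4 dpf vtnb scored 2.84, 2.06 and 2.83 in GFP+ cells, against 0.21, -0.31 and 1.62 in GFP- cells. At 6 dpf the GFP+ arrays lay close together at 2.73, 2.76 and 2.75, against 0.07, 0.48 and 0.79 on the GFP- arrays. The third GFP- array at 4 dpf was the highest GFP- array of the series for this gene, yet it stayed below every GFP+ array of that age.

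The difference between the gates in vtnb was 2.08 ± 0.32 array SD at 2 dpf and 2.07 ± 0.32 at 3 dpf (SE, n = 3 arrays per gate). It was 2.07 ± 0.32 at 4 dpf and 2.30 ± 0.32 at 6 dpf, so it moved by less than 1 SE over the ages. The SE of a gene rests on a spread shared by all 8 groups, not on the arrays of that age alone. With 1 array left out at a time the difference at 4 dpf was 1.66 to 2.63, lowest without the second and highest without the third GFP- array. Within GFP+ cells the 6 dpf mean exceeded the 2 dpf mean by 1.01 ± 0.32, and the arrays of these ages did not overlap. Each adjacent pair of ages did overlap in GFP+ cells, as did 2 dpf GFP+ cells with the 4 dpf GFP- arrays.

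Fetuin B transcript was present in GFP+ cells from the start and climbed in score at every age. The fetub score was 0.37, 0.79 and 1.52 on GFP+ arrays at 2 dpf, against -0.11, 0 and -0.18 on GFP- arrays. At 3 dpf it was 2.23, 1.76 and 1.73 in GFP+ cells, against 0.14, 0.34 and -0.09 in GFP- cells. The GFP+ arrays at 2 dpf were spread over more than 1 array SD, but each lay above every GFP- array of that age.

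At 4 dpf fetub scored 3.63, 2.88 and 3.53 in GFP+ cells, against 1.61, 0.82 and 2.75 in GFP- cells. At 6 dpf it scored 3.86, 3.89 and 4.09 in GFP+ cells, where it lay above 99.7% to 99.8% of all probe sets, against 2.18, 2.48 and 2.95 in GFP- cells. Arrays of successive ages did not overlap at any step in GFP+ cells. This gene also differed from the others in its GFP- levels, which were above the array median on all 6 GFP- arrays of 4 and 6 dpf.

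The difference between the gates in fetub was 0.99 ± 0.35 array SD at 2 dpf. It was 1.78, 1.62 and 1.41 at the later ages in turn, with the same SE. In a fit on the 4 dpf arrays alone the SE at that age was 0.48. With 1 array left out at a time the difference at 4 dpf was 1.16 to 2.13, lowest without the second and highest without the third GFP- array. Between 6 and 2 dpf the mean differed by 3.05 ± 0.35 in GFP+ cells and by 2.63 ± 0.35 in GFP- cells. The change in the gate difference between these ages was 0.42 ± 0.49, which is less than its error. The highest score of any probe set was 3.97 to 4.52 per array, so fetub lay near the top of the scale in 6 dpf GFP+ cells. The effect of this on its gate difference was not tested. In the order of group means, 6 dpf GFP- cells came before 3 dpf GFP+ cells, and the arrays of these groups overlapped.

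Sex hormone binding globulin was at GFP- levels at 2 dpf and well above them a day later. The brighter shbg probe set scored 0.00, -0.37 and -0.23 on GFP+ arrays at 2 dpf, against -0.43, -0.33 and -0.50 on GFP- arrays. At 3 dpf it scored 2.09, 1.82 and 1.60 in GFP+ cells, against -0.16, -0.32 and -0.34 in GFP- cells. The gates overlapped at 2 dpf and were apart at 3 dpf.

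At 4 dpf this probe set scored 3.01, 2.07 and 3.05 in GFP+ cells, against 0.39, -0.04 and 1.86 in GFP- cells. At 6 dpf it scored 2.83, 2.91 and 3.13 in GFP+ cells, against 0.19, 0.76 and 0.69 in GFP- cells. The 4 and 6 dpf GFP+ arrays overlapped, so most of the difference from 2 dpf was in place by 4 dpf.

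The difference between the gates in shbg was 0.22 ± 0.33 array SD at 2 dpf. It was 2.11, 1.97 and 2.41 at the later ages in turn, with the same SE. With 1 array left out at a time it was 1.585 to 2.54 at 4 dpf, lowest without the second and highest without the third GFP- array. In GFP+ cells the step between 3 and 2 dpf was 2.04 ± 0.33, the 13th largest of all probe sets. The gene was chosen for differences of this kind, so that rank is no measure of rarity. The steps that followed were 0.87 ± 0.33 between 4 and 3 dpf and 0.25 ± 0.33 between 6 and 4 dpf. The dimmer probe set of the gene had the same age of appearance but a smaller step between 3 and 2 dpf of 1.00 ± 0.25. Its gate difference was 0.06 ± 0.25 at 2 dpf, and 0.98, 1.80 and 1.76 at the later ages in turn. In GFP- cells that probe set lay below the array median on every array except the third at 4 dpf, where it scored 0.49.

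Fetuin-A transcript was the late one. The ahsg1 score was -0.65, -0.63 and -0.59 on GFP+ arrays at 2 dpf, against -0.68, -0.76 and -0.75 on GFP- arrays. At 3 dpf it was -0.68, -0.68 and -0.76 in GFP+ cells, against -0.79, -0.78 and -0.75 in GFP- cells. The gates were apart at 2 dpf by a small margin, but every array of both gates lay near the floor at 2 and 3 dpf, where at most 14.4% of the probe sets of the same array were lower.

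At 4 dpf ahsg1 scored -0.39, -0.41 and 0.71 in GFP+ cells, against -0.64, -0.66 and -0.47 in GFP- cells. At 6 dpf it scored 1.75, 1.76 and 1.96 in GFP+ cells, against -0.66, -0.52 and -0.30 in GFP- cells. A single GFP+ array, the third at 4 dpf, had the transcript above the array median before 6 dpf. No GFP- array of any age had it above the median.

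The difference between the gates in ahsg1 was 0.11 ± 0.19 array SD at 2 dpf. It was 0.07, 0.56 and 2.31 at the later ages in turn, with the same SE. In fits on the groups compared alone the SE was 0.08, 0.07, 0.30 and 0.12 at 2, 3, 4 and 6 dpf. At 4 dpf the difference was 0.19 to 0.75 with 1 array left out at a time. The lowest value was that without the third GFP+ array, so that array carries most of the 4 dpf difference. At 6 dpf it ranged from 2.23 to 2.41 as each array of the series was left out. The step between 4 and 3 dpf in GFP+ cells was 0.68 ± 0.19, and each 4 dpf array lay above every 3 dpf array. The step between 6 and 4 dpf in GFP+ cells was 1.85 ± 0.19, the largest of all 15502 probe sets, and in GFP- cells it was 0.10 ± 0.19. The GFP+ arrays had an SD of 0.64 at 4 dpf and 0.12 at 6 dpf. The SE shared by all 8 groups is therefore small for the spread at 4 dpf. In all 7 probe sets, ahsg1 included, or 0.0452%, had 3 features: appearance at 6 dpf, a 6 dpf GFP+ mean of at least 1, and scores below the median on all GFP- arrays. The named ones beside ahsg1, singled out after their values were seen, are prozb, a protein Z gene of the coagulation system, the class I histocompatibility gene mhc1laa and the cytochrome P450 gene cyp2x10.2. The features follow the profile of ahsg1, which was chosen for differences of this kind. The share and the rank of its last step are therefore no measure of rarity.

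Set side by side, all GFP+ arrays lay above all GFP- arrays in 3 of the 5 probe sets at 2 dpf, where 24.0% of all probe sets did so. The counts were 4 of 5 at 3 dpf (25.7% of all probe sets), 5 of 5 at 4 dpf (30.2%) and 5 of 5 at 6 dpf (32.5%). These contrasts chose the genes, and nothing is read from the counts. A sign of RNA quality was apart between the gates at 2 dpf and overlapped at the later ages. The GAPDH controls of the array give a 3'-minus-5' difference in score, which was 0.4 to 0.75 on GFP+ and 0.24 to 0.27 on GFP- arrays at 2 dpf. At 3 dpf it was 0.1 to 0.43 on GFP+ and 0.13 to 0.29 on GFP- arrays, and at 4 dpf 0.03 to 0.69 and 0.2 to 0.45. At 6 dpf it was -0.13 to 0.27 on GFP+ and 0.24 to 0.85 on GFP- arrays. The part of RNA quality in the values was not tested.

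**Figure D2:**
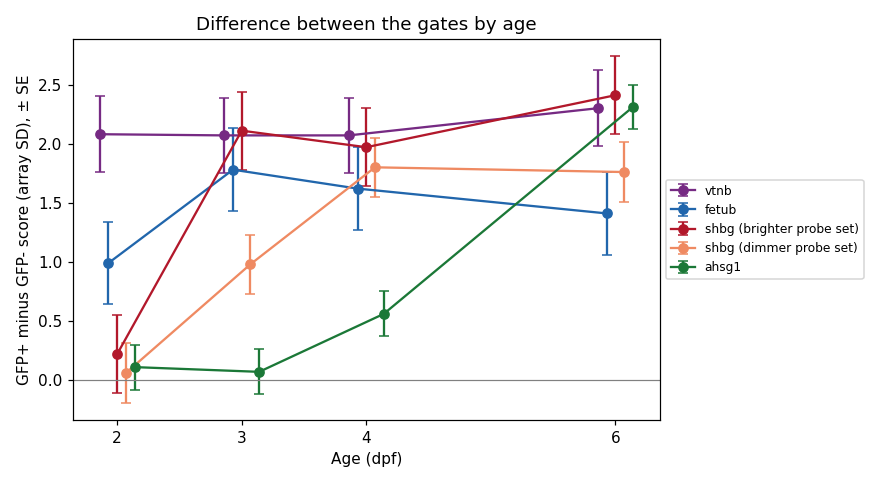
GFP+ minus GFP- score in array SD with its SE from the model (vertical axis) against age in dpf (horizontal axis), a coloured line for each probe set (n = 3 arrays per gate and age). The vtnb line stays between 2.07 and 2.30, the brighter shbg probe set moves most between 2 and 3 dpf, and ahsg1 moves most between 4 and 6 dpf.

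The 2 fetuin genes lie next to each other. In the RefSeq gene order of the zebrafish assembly GRCz12tu, ahsg1 and fetub are adjacent protein-coding genes on chromosome 22, with si:dkey-37m8.3 on the other side of ahsg1 and kcnh1b on the other side of fetub. At 3 dpf ahsg1 scored below the median on all GFP+ arrays, while fetub was above it on all of them. The choice of genes fixes this contrast, so nothing is read from it. Both genes had their highest group mean in GFP+ cells at 6 dpf (1.82 for ahsg1 and 3.95 for fetub). The kininogen gene kng1, another member of the cystatin superfamily with cystatin domains, is measured as well, and its product is a plasma protein too. Of the 10 other cystatin superfamily genes listed, 3 were measured, and limma called 1 of them, kng1, higher at 6 dpf (background 23.2%), and 1 of 3 is near that share. The cystatin C gene cst3 was called lower in GFP+ cells at 2 dpf (-0.47 ± 0.13, adjusted p = 0.0159) and at 3 dpf (-0.75 ± 0.13, adjusted p = 0.000185). The GFP+ mean of kng1 was 1.91 ± 0.27 at 2 dpf (SD, n = 3) and 3.24 ± 0.10 at 6 dpf, and it was higher in GFP+ than in GFP- cells at each age, by 1.76 ± 0.29 to 2.23 ± 0.29 (SE; limma adjusted p at most 0.000115). Genes beside shbg and vtnb were also measured and were looked at after the results were known. The RNA polymerase II subunit gene polr2a near shbg had a GFP+ mean of 2.31 ± 0.12 at 2 dpf and 1.94 ± 0.11 at 6 dpf. The carboxylate transporter gene slc13a2 beside vtnb had a GFP+ mean of -0.29 ± 0.19 at 2 dpf and 0.39 ± 0.25 at 6 dpf. Near it, unc119a2 was at -0.28 ± 0.09 in GFP+ cells, against 1.49 ± 0.30 in GFP- cells at 6 dpf. The other measured neighbours had 6 dpf means of -0.08 in GFP+ cells, against -0.25 in GFP- cells (traf4b), -0.27 against -0.15 (hdlbpb) and -0.75 against -0.77 (zbtb4).

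Plasma protein transcripts were also seen in some GFP- samples, and some lists of digestive organ markers were high on the same arrays, but not all. On the 3 GFP- arrays at 4 dpf the median of the 10 hepatocyte markers was 1.18, 0.94 and 2.54, and that of 10 exocrine pancreas markers had a lowest value of 0.3 and a highest of 2.67. On the third of these arrays vtnb, fetub, both shbg probe sets and ahsg1 had their highest score of the group. The intestinal epithelium median was 0.47, 1.88 and 1.41 on the same arrays in turn, and the endocrine pancreas median was 0.69, 1.17 and 0.75. Both were highest on the second array, where vtnb (-0.31) and fetub (0.82) were lowest. At 6 dpf the exocrine pancreas median in GFP- cells was 3.01 to 3.45, against -0.44 to -0.26 at 2 dpf. Between these ages the GFP- mean of fetub rose by 2.63 ± 0.35 (SE). The rise was smaller for vtnb (0.78 ± 0.32), the shbg probe sets (0.96 ± 0.33 and 0.15 ± 0.25) and ahsg1 (0.24 ± 0.19). From 4 to 6 dpf the GFP- means of vtnb (-0.06 ± 0.32) and of the shbg probe sets (-0.19 ± 0.33 and -0.23 ± 0.25) did not rise. The 10 hepatocyte markers averaged between 0.76, for the ceruloplasmin gene cp, and 3.67, for fabp10a, in GFP- cells at 6 dpf, and all of these means were above 0. The ahsg1 score stayed at -0.30 or below on all 12 GFP- arrays. Of the genes shared by the yolk syncytial layer and the liver, 7 were measured. Their median was 1.01 to 1.54 on GFP- arrays at 2 dpf and 3.46 on the third GFP- array at 4 dpf. The part of digestive cells or of the yolk syncytial layer in these GFP- values was not tested.

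**Figure D3:**
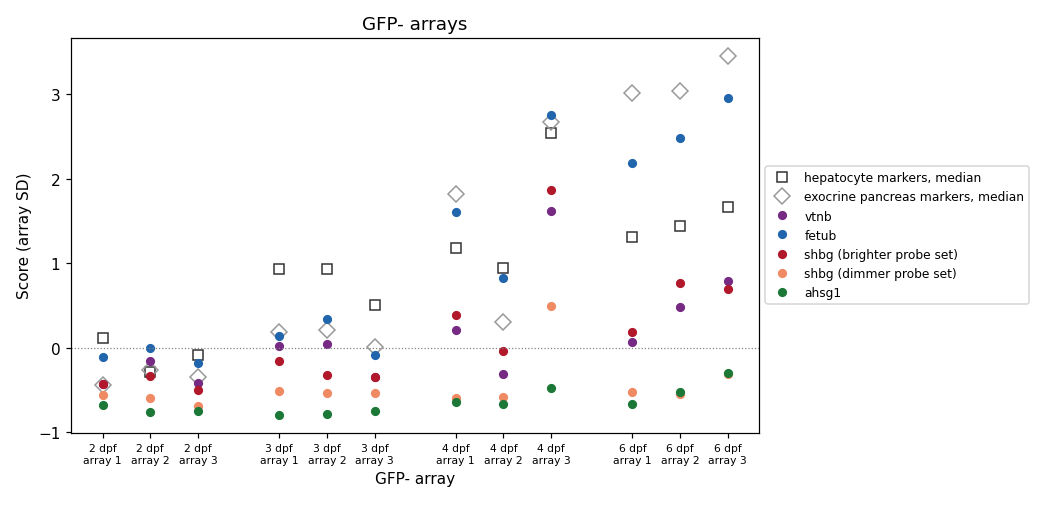
Score in array SD (vertical axis) on each of the 12 GFP- arrays, ordered by age (horizontal axis), for the plasma protein probe sets (filled circles) and for the medians of the hepatocyte (squares) and exocrine pancreas markers (diamonds). The third array at 4 dpf is high in both marker medians and in fetub, shbg and vtnb, and ahsg1 stays below 0 throughout.

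How other plasma proteins of hepatocytes behaved was read from a list of 118 genes, of which 64 were measured none of them ahsg1, fetub, shbg or vtnb. The list shares 4 genes with the hepatocyte markers: tfa, cp, apoa2 and rbp4. It shares apoa4b.1 and apoa1a with the intestinal epithelium markers. With the genes shared by the yolk syncytial layer and the liver it has apobb.1, apoa2, apoc1, apoeb, tfa and rbp4 in common. The list was drawn up with earlier results of these data known. A list gene counts by its brightest probe set, whereas background shares cover all probe sets, so the 2 are not like measures. Limma called 28 of the 64 higher and 2 lower in GFP+ than in GFP- cells at 2 dpf, where 9.66% and 7.36% of all probe sets were called. At 3 dpf it called 45 higher (background 14.5%) and 3 lower (12%), and at 4 dpf 54 higher (19.0%) and 2 lower (11.3%). The 4 dpf count was 34 in a fit on the 6 arrays of that age alone. At 6 dpf 53 were higher (23.2%) and 2 lower (14.9%). The median difference of the list was 0.55, 1.08, 1.41 and 1.57 array SD in the order of the ages, while the median over all probe sets lay between 0.03 and 0.11.

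Among the called genes, the fibrinogen gene fgg (2.74 ± 0.38), the antiprotease gene serpina1l (2.71 ± 0.30) and the plasminogen gene plg (2.68 ± 0.24) differed most at 2 dpf. At 6 dpf these were a2m2f of the alpha-2-macroglobulin family (2.36 ± 0.39), the complement gene c3a.6 (2.30 ± 0.29) and the antiplasmin gene serpinf2a (2.23 ± 0.32). The genes called lower at 6 dpf were rbp4l (-2.75 ± 0.27), of the retinol binding protein family, and the apolipoprotein E gene apoeb (-1.03 ± 0.18). The GFP- mean of rbp4l was 0.90 ± 0.53 at 2 dpf and 3.39 ± 0.22 at 6 dpf (SD, n = 3). The median of 8 retina and lens markers on GFP- arrays was -0.44 to -0.22 and 2.78 to 3.23 at these ages. The part of cells other than hepatocytes in rbp4l was not tested, so its values cannot be read as those of the liver.

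Over age, 52 of the 64 genes rose between 2 and 6 dpf in GFP+ cells, where 9.17% of all probe sets rose. By limma 0 fell, where 13% of all probe sets fell, and 1 was lower at an unadjusted p under 0.05. Markers of other cell types moved on the same GFP+ arrays. The exocrine pancreas median was 3.91 to 4.01 at 6 dpf and -0.19 to -0.12 at 2 dpf. The epidermis median was 0.29 to 0.7 at 6 dpf and 1.17 to 1.82 at 2 dpf, and the skeletal muscle median was -0.29 to 0.3 and 1.42 to 1.9 at these ages. Their part in the change of the plasma protein genes was not tested. The steps were uneven. Limma called 5 higher between 3 and 2 dpf (background 0.535%), 21 between 4 and 3 dpf (3.83%), and 1 higher and 3 lower between 6 and 4 dpf (1.57% and 3.02%). The gene called higher at the last step was serping1, which encodes the C1 inhibitor of the complement system (0.88 ± 0.24, adjusted p = 0.038). The genes called lower at that step were the mannose binding lectin gene mbl2 (-1.60 ± 0.25), angptl4 (-1.04 ± 0.21), an inhibitor of lipoprotein lipase, and the haemopexin gene hpxa (-1.02 ± 0.23). In GFP- cells 32 of the 64 genes rose between 2 and 6 dpf, where 8.77% of all probe sets did. GFP+ minus GFP- was more positive at 6 than at 2 dpf for 20 genes (3.54% of all probe sets) and less positive or more negative for 5 (4.89%). The 5 genes include rbp4l, at -2.75 ± 0.27 at 6 dpf and -0.42 ± 0.27 at 2 dpf.

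By the rule of appearance, 36 of the 64 genes were present in GFP+ cells at 2 dpf (32.3% of all probe sets). At 3 dpf 11 appeared (background 1.35%), at 4 dpf 4 (1.21%) and at 6 dpf 3 (3.26%). The 3 genes of 6 dpf, 4.69% of the list, are near that share. The remaining 10 were not above the median on all GFP+ arrays at 6 dpf (61.9% of all probe sets). The GFP+ means of the 36 genes at 2 dpf reached from 0.27 ± 0.33 for the complement gene c8g to 3.62 ± 0.11 for the apolipoprotein gene apoa2 (SD, n = 3). Those with the highest 6 dpf means among them were apoa2, apoc1, serpina1l, tfa, fgg and plg. The genes of the list that appeared at 6 dpf by this rule were masp2, a protease gene of the lectin pathway of complement, serping1 and rbp4l. The GFP+ mean of masp2 was -0.33 ± 0.20 at 2 dpf, 0.87 ± 0.86 at 4 dpf and 1.78 ± 0.20 at 6 dpf, with a wide spread at 4 dpf. That of serping1 was -0.23 ± 0.04, 0.60 ± 0.73 and 1.48 ± 0.22 at these ages. The gene rbp4l had already a mean of 0.48 ± 0.18 at 2 dpf, so its late age rests on arrays near the threshold. Unlike ahsg1, rbp4l was lower in GFP+ than in GFP- cells at 6 dpf (-2.75 ± 0.27, SE). At 4 dpf appeared igfals, of the circulating growth factor complex, the coagulation factor VII gene f7 and the complement gene c4. As shbg did, 1 of the 10 hepatocyte markers, the tryptophan dioxygenase gene tdo2a, appeared at 3 dpf, and the other 9 were present at 2 dpf.

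**Figure D4:**
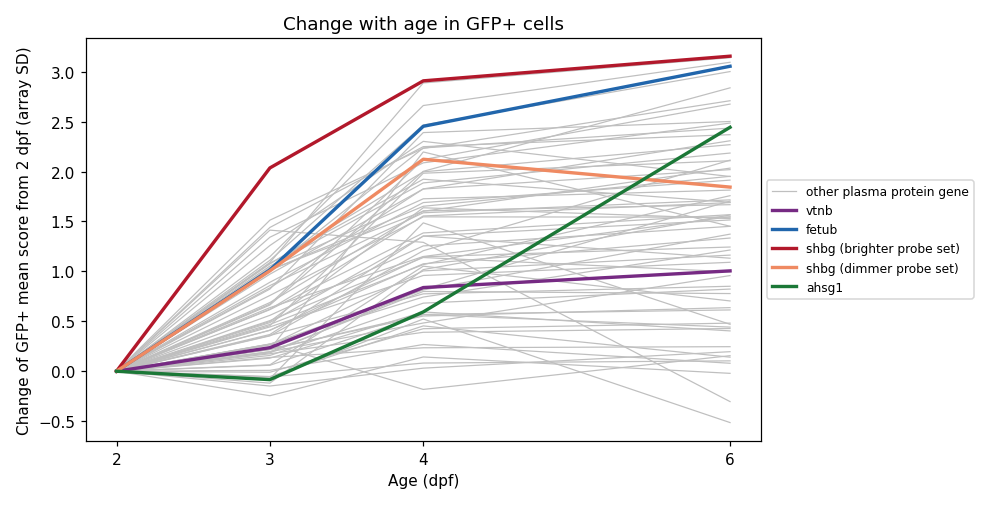
Change of the GFP+ group mean from 2 dpf in array SD (vertical axis) against age in dpf (horizontal axis) for 64 other plasma protein genes (grey) and for the probe sets described here (coloured). Between 4 and 6 dpf the median gene of the list differs by 0.13 array SD, whereas ahsg1, chosen for differences of this kind, differs by 1.85. Single genes of the list differ more than their median, such as serping1 (0.88) and mbl2 (-1.60).

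Transcription factor genes known from hepatocytes were more often higher than lower in GFP+ cells at 2 dpf. Of 25 measured, limma called 12 higher and 3 lower in GFP+ cells at 2 dpf (background 9.66% and 7.36%), and 13 higher and 3 lower at 6 dpf (23.2% and 14.9%). The counts called lower are near those shares. At 2 dpf the median difference of the list was 0.51 array SD, against 0.05 over all probe sets. The called genes with the largest positive differences at 2 dpf were the endoderm factor genes foxa1 (1.82 ± 0.20), gata6 (1.68 ± 0.17) and foxa3 (1.51 ± 0.14). Those called lower were the thyroid hormone receptor gene thrb (-0.85 ± 0.24) and the orphan nuclear receptor genes nr2f2 (-0.71 ± 0.20) and nr2f1a (-0.52 ± 0.13). In GFP+ cells between 2 and 6 dpf 4 rose (9.17%) and 2 fell (13%), both near the shares over all probe sets. The genes that rose included cebpd (1.01 ± 0.16), xbp1 (0.91 ± 0.18) and the oxysterol receptor gene nr1h3 (0.89 ± 0.20), and those that fell were foxa1 (-0.57 ± 0.20) and foxa3 (-0.51 ± 0.14).

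Known partners of the plasma proteins were measured in part. Of 17 genes for sex steroid synthesis and receptors, 8 were called higher and 1 lower in GFP+ cells at 6 dpf (background 23.2% and 14.9%). The oestrogen receptor gene esr2b was higher by 0.69 ± 0.13, whereas the difference was 0.11 ± 0.09 for esr1 (adjusted p = 0.39) and 0.29 ± 0.17 for esr2a (adjusted p = 0.173). The steroid reductase gene srd5a2a was higher by 1.62 ± 0.20 and hsd17b12b by 0.90 ± 0.17, and hsd17b12a was lower (-2.26 ± 0.23). Of 10 genes for mineral handling and insulin signalling linked to fetuins, 3 were called higher and 1 lower at 6 dpf, close to the shares over all probe sets (23.2% and 14.9%). They include the pyrophosphate-producing enzyme gene enpp1 (1.05 ± 0.15), alpl of tissue non-specific alkaline phosphatase (0.35 ± 0.10) and the pyrophosphate transport gene ankha (-1.01 ± 0.15). The insulin receptor gene insra rose between 2 and 6 dpf in both gates, by 0.44 ± 0.10 in GFP+ cells and 0.53 ± 0.10 in GFP- cells. Of 4 astacin proteinase genes 1 was called higher at 6 dpf and 0 lower by limma, also close to those shares, with 2 and 0 at an unadjusted p under 0.05. Of the vitronectin partners 3 were measured: the gate difference at 6 dpf was -0.43 ± 0.20 for the integrin gene itgb5, 0.33 ± 0.15 for the urokinase gene plaua and -0.13 ± 0.12 for serpine2, and limma called 0 of them at any age between the gates. At an unadjusted p under 0.05 1 was higher and 1 lower at 6 dpf.

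The genes with the most similar profiles were taken for each gene from 1065 genes whose group means varied, by Pearson's r over the 8 group means, which share their arrays. For vtnb they were the fatty acid transport gene slc27a2a and the sulfurtransferase gene mpst (r = 0.996 each), the anion transporter gene slco1d1 (0.993), the coagulation factor V gene f5 and the glycogen phosphorylase gene pygl (0.992 each). For fetub they were the gluconeogenesis gene pck1 (0.994), apoc1 (0.983), leg1.1 (0.978), the mTOR inhibitor gene deptor (0.975) and the zymogen granule gene sycn.2 (0.974).

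For shbg they were srd5a2a (0.996), tdo2a (0.995), the dehydrogenase gene dhrs9 (0.992), etnppl and the angiotensinogen gene agt (0.988 each). For ahsg1 the values were lower: the nuclear receptor gene nr5a5 (0.967), serping1 (0.956), the uridine phosphorylase gene upp2 (0.955), the tyrosine aminotransferase gene tat (0.948) and the chitinase gene chia.6 (0.947). Among the 4 genes themselves r was 0.911 for shbg with fetub, 0.849 for shbg with vtnb, 0.781 for fetub with vtnb, 0.754 for ahsg1 with its neighbour fetub, 0.729 for ahsg1 with shbg and 0.644 for ahsg1 with vtnb. The closest gene to ahsg1, nr5a5, had GFP+ means of -0.50, -0.42, 0.29 and 1.09 at 2, 3, 4 and 6 dpf, against GFP- means of -0.57, -0.63, -0.54 and -0.47. The closest gene to shbg, srd5a2a, had GFP+ means of -0.09, 1.56, 2.25 and 2.24, against -0.31, -0.11, 0.78 and 0.61 in GFP- cells.

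**Figure D5:**
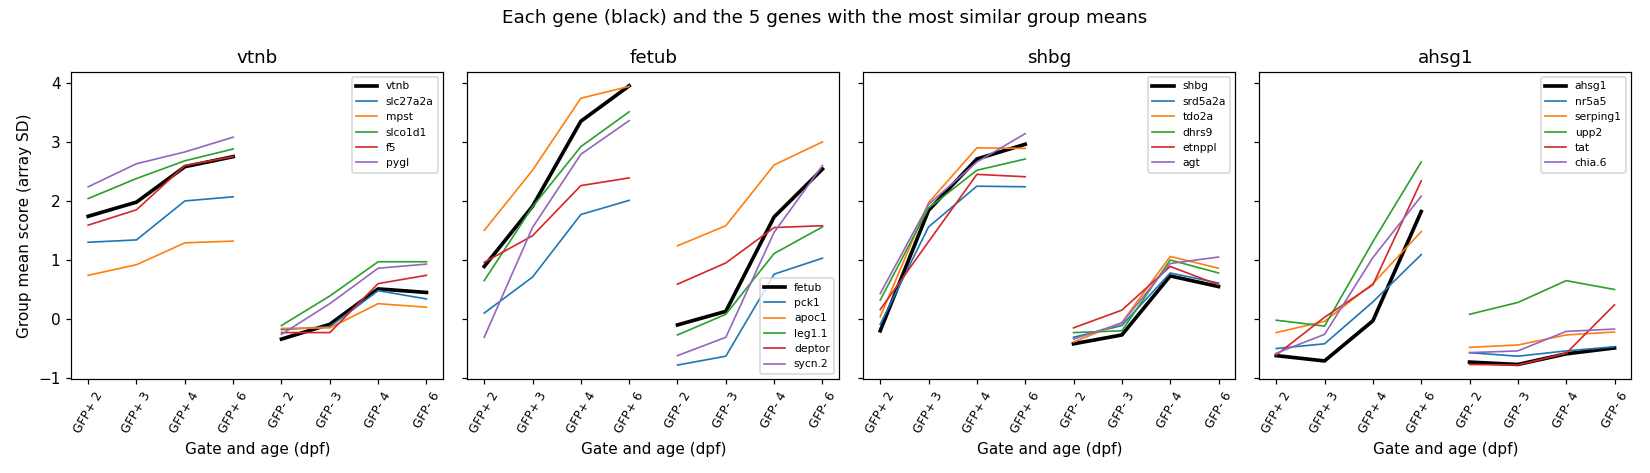
Group mean score in array SD (vertical axis) over GFP+ and then GFP- cells at 2, 3, 4 and 6 dpf (horizontal axis) for each gene (black) and the 5 genes with the highest Pearson's r over the 8 group means (coloured). The lines of vtnb start high in GFP+ cells, whereas those around ahsg1 are highest at 6 dpf in GFP+ cells.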

How the data were processed

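RNA from sorted cells was turned into amplified, biotin-labelled cDNA for Affymetrix zebrafish arrays, per the labels' protocols. Per the submitters' processing notes the authors used RMA. Each deposited score is scaled within its array to median 0 and SD 1. No source used here gives the log base or how the scaling was done, so there are no fold changes. Of 15617 probe sets 115 controls were left out. A single symbol was annotated for 10795 probe sets, while 135 had several and 4572 had none. Symbols were updated through gene identifiers. A gene is represented by its brightest probe set.

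A model with 8 group means was fitted to all 15502 probe sets with limma 3.58.1 in R 4.3.3, tested on simulated data. Two-sided p-values were adjusted by Benjamini-Hochberg within each comparison, at a threshold of 0.05. An exact permutation test of 3 against 3 arrays has a smallest p of 0.1. Genes and lists were chosen with earlier results of these data known. Named genes of a list are up to 3 called genes with the largest difference each way per comparison. For plasma proteins the 6 earliest and 6 latest to appear are named too, with ties, such as those at 2 dpf, taken by the higher GFP+ mean at 6 dpf. Profiles were compared among genes whose 8 group means had an SD of at least 0.5.

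The series design counts a GFP+ and a GFP- sample within every replicate, which pairs same-numbered arrays of an age. Residuals of the 12 pairs correlated between -0.079 and 0.312 (mean 0.081). The SE given for gate differences come from the model without these pairs. With the pairs as a block, the SE at 2 dpf was 0.149 for ahsg1 and 0.258 for fetub, against 0.187 and 0.349 without.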

Additional observations from a re-analysis of the deposited data

Results flagged for a closer look

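For 6 other genes of the plasma protein list, the difference between the gates itself differed between 6 and 2 dpf (limma interaction contrast, adjusted p under 0.05). They are the 3 largest in each direction. GFP+ minus GFP- was more positive at 6 dpf for the carboxypeptidase N gene cpn1 by 2.54 ± 0.37 array SD (SE, n = 3 arrays in each of 4 groups), for c3a.6 by 2.29 ± 0.41 and for a2m2f by 2.11 ± 0.55. It was more negative at 6 dpf for rbp4l (-2.33 ± 0.39), and less positive for plg (-1.76 ± 0.34) and serpina1l (-1.59 ± 0.43). For rbp4l the part of cells other than hepatocytes was not tested. The 6 dpf GFP+ means of plg (3.62 ± 0.02; SD, n = 3) and serpina1l (3.79 ± 0.10) lay near the highest score of an array, 3.97 to 4.52. The effect of this was not tested. For cpn1 the GFP+ mean at 2 dpf was lower than the GFP- mean (0.11 ± 0.25 against 0.88 ± 0.35; SD, n = 3).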

How the results depend on the processing

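The gate differences of ahsg1, fetub, shbg and vtnb at each age and their 6 minus 2 dpf differences in GFP+ cells were recomputed, and none of the 635 values changed sign. Other age differences were not recomputed. Of 155 values from alternatives other than leaving out 1 array, 5 moved by over 1 replicate SD, as did 4 of 480 with 1 array left out. Many of these values could not move. A difference uses only the arrays of the groups it compares, so leaving out an array of another group returns the same number. The replicate block and the fit on the groups compared alone change its SE only. These counts are therefore no measure of robustness. The values that moved are those at 4 dpf given above and shbg with its probe sets averaged, at 1.55 for the gates at 3 dpf and 2.50 for 6 minus 2 dpf in GFP+ cells. The age of appearance of fetub was 3 dpf, not 2 dpf, when all 3 arrays had to exceed a score of 1 or the 75th percentile of the array, because its 2 dpf scores lie under these limits on some arrays. Those of the other genes, each by its brightest probe set, were the same under each alternative, also with any GFP+ array left out. The dimmer shbg probe set appeared at 6 dpf under both limits. It scored 0.20 to 0.87 in GFP+ cells at 3 dpf, and 0.94 on the second GFP+ array at 4 dpf, above 74.6% of probe sets. With the replicate pair as a block, the plasma protein genes higher in GFP+ cells numbered 31, 45, 54 and 54 at 2, 3, 4 and 6 dpf, and 24 had a more positive gate difference at 6 than at 2 dpf. No replicate block moved a count by over 1.5 times. In fits on the arrays of a single age 31, 48, 34 and 52 genes were higher at 2, 3, 4 and 6 dpf. Why the 4 dpf count differed most was not tested. Array weights gave 1 gene lower at 6 than at 2 dpf in GFP+ cells, and leaving out 1 array gave 0 to 1. The cause was not tested. Leaving out 1 array gave 24 to 31 genes higher in GFP+ cells at 2 dpf, 37 to 47 at 3 dpf, 51 to 55 at 4 dpf and 49 to 54 at 6 dpf. It gave 45 to 53 genes rising in GFP+ cells, 26 to 39 in GFP- cells, and 15 to 24 with a more positive gate difference at 6 dpf. With a minimum mean score of 0, ahsg1 is not tested and has no value.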
